A study of Zea mays with 8 samples.

Results

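MADS-box transcription factors that specify the organs of the maize flower were followed across anthers of wild-type and hda108 mutant plants. The genes were given as a list of 7 gene IDs, and all 7 were found among the 39604 genes with a deposited value. They were the B-class genes si1 (silky1, GRMZM2G139073), zmm16 (also sts1, GRMZM2G110153) and GRMZM2G152862, the C-class genes zag1 (GRMZM2G052890) and zmm2 (GRMZM2G359952), and the AGL6-like genes bde (also zag3, GRMZM2G160565) and ZAG5 (GRMZM2G003514). The list named GRMZM2G152862 zmm18, whereas the RefSeq gene table used for names (assembly Zm-B73-REFERENCE-NAM-5.0) pairs it with zmm29 and gives m18 to GRMZM5G805387, so it is called zmm29 here. The symbol zmm2 is also shared: the table gives it to the chromosome 8 gene described here and to an entry on chromosome 5, treated with the rest of the family below.

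In the flower, B-class and C-class proteins together specify stamens, the organs that carry the anthers, and C-class proteins without B-class ones specify the carpels. B-class proteins act as pairs of an AP3-like partner (si1) and a PI-like partner (zmm16, zmm29). The proteins bind DNA in larger complexes that also hold SEP-like family members. AGL6-like genes act in the floral meristem, and loss of bde (bearded-ear) disturbs its determinacy and organ identity. In maize, loss of si1 or of zmm16 turns stamens into carpel-like organs.

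There were 4 groups, each with 2 libraries that were each pooled over 3 tassels of field-grown plants. They were wild-type (WT) anthers and hda108/hda108 anthers, either after meiosis (post-meiotic) or at the mitotic stage. HDA108 encodes a histone deacetylase, and the genetic background, the mutant allele's position and the plants' age were not given in the sources used here. Total RNA depleted of ribosomal RNA was sequenced with strand information, and the deposited values are FPKM (fragment counts scaled to transcript length and library size), with a single value for each gene in a group. No spread between libraries could therefore be computed, no test was possible, and "higher" and "lower" describe these values alone. In whole anthers, fewer cells of a type and less RNA per cell cannot be told apart.

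The size rule used for calls asks for a difference of 2 or more in log2(FPKM + 1), which is close to 4-fold where a gene is abundant. Genes entered the comparisons when any group reached 1 FPKM, as 24360 did, and the depth of the libraries is unknown. The FPKM of a group summed to between 505427 and 1284190. The sums were lower in hda108 at both stages. When every group was rescaled to the same sum, the median hda108 minus WT difference of all genes became 0.50 log2 in post-meiotic anthers (as deposited, -0.03) and 1.05 in mitotic anthers (as deposited, -0.02). HDA108 itself stood at 12.3 FPKM post-meiotic and 6.43 FPKM mitotic in WT, and at 4.10 and 4.30 FPKM in hda108. Its post-meiotic difference was -1.39 log2 as deposited and -0.87 with rescaled groups. The mitotic difference of HDA108, -0.49 log2, became 0.66 with rescaled groups, below the all-gene median of 1.05.

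The tissue label was compared with marker genes. All 8 genes found of the pollen list were expressed in every group, between 62.7 and 8598 FPKM. The list was made by gene name, and whether each of its genes, abp3 among them, marks pollen was not checked here. The anther transcription factor genes ms23 and ms32, which act in the tapetum, stood at 46.7 and 84.2 FPKM in post-meiotic anthers of WT. Both were highest in that group. Other genes of the tapetum and anther wall list were low there, with ms26 at 5.64, ig1 at 3.56, ms8 at 0.608 and ocl4 at 0.484 FPKM. The gene found under the name tip2 stood at 4574 FPKM. The list as a whole thus did not mark the tissue evenly. zag2, a MADS-box gene of the ovule and the only marker found of the ovary list, stayed between 0.0944 and 0.400 FPKM. The gene of the B-sister type, zmm17, was listed at 0 in 3 groups and had 0.290 FPKM in hda108 post-meiotic anthers.

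The B-class genes si1 and zmm16 had the highest levels of the 7 in every group, and zmm29 was below the C-class gene zmm2 in 3 of 4 groups. si1 (chromosome 6, 84949623 to 84954298, B73 RefGen_v3) is the AP3-like gene. WT anthers held it at 836 FPKM (post-meiotic) and 726 FPKM (mitotic), and hda108 anthers at 923 and 594 FPKM. Counted from the most abundant of the 24360 genes, si1 ranked 169 and 271 in WT and 42 and 61 in hda108. The highest si1 value was thus that of hda108 post-meiotic anthers and the lowest that of hda108 mitotic anthers, a range of 0.64 log2.

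The PI-like gene zmm16 (chromosome 3, 171471053 to 171473646) was the highest of the 7 genes in every group. Its level in WT was 1345 FPKM in post-meiotic and 888 FPKM in mitotic anthers. The hda108 levels were 1399.9 and 702 FPKM. Both post-meiotic values of zmm16 lay above both mitotic ones. In hda108 post-meiotic anthers zmm16 ranked 21 among all genes.

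zmm29 (chromosome 8, 102450747 to 102454585) is the other PI-like gene. It stood at 280.3 FPKM (post-meiotic) and 276 FPKM (mitotic) in WT, and at 234 and 159 FPKM in hda108. The 2 WT values nearly coincided, and both lay above the hda108 values. Its close relative m18 (GRMZM5G805387, chromosome 8, 102542052 to 102547210) starts 87.5 kb beyond the end of zmm29. m18 stood at 1157 FPKM (post-meiotic) and 944 FPKM (mitotic) in WT, and at 913 and 372 FPKM in hda108. Because similar copies can share reads, the split between zmm29 and m18 is uncertain, and a second gene model of the table, AC226248.1_FG002, has the same coordinates as m18.

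Of the C-class genes, zmm2 was abundant and zag1 was not. zmm2 (chromosome 8, 22983103 to 22992125) reached 302 FPKM (post-meiotic) and 199 FPKM (mitotic) in WT, and 463 and 436 FPKM in hda108. zag1 (chromosome 6, 132008586 to 132016861), whose loss in maize mainly affects determinacy of the ear flower, reached 9.53 FPKM (post-meiotic) and 7.82 FPKM (mitotic) in WT. Its hda108 levels were 16.7 and 18.5 FPKM. For both genes, each hda108 value lay above both WT values.

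Of the AGL6-like genes, bde and ZAG5, neither exceeded 10 FPKM in any group. bde (chromosome 5, 196601245 to 196608839) was at 0.881 FPKM (post-meiotic) and 0.988 FPKM (mitotic) in WT, and at 0.375 and 1.08 FPKM in hda108. It entered the comparison only through its hda108 mitotic value, and all 4 of its values lie near the bottom of the compared genes. ZAG5 (chromosome 4, 156111148 to 156118295), which is closely related to bde, was at 9.97 FPKM (post-meiotic) and 7.48 FPKM (mitotic) in WT. Its hda108 levels were 0.203 FPKM and 1.09 FPKM. Both WT values of ZAG5 were well above both hda108 values.

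The order of levels was zmm16, si1, zmm2, zmm29, ZAG5, zag1 and bde in WT after meiosis. In the mutant at that stage ZAG5 was in the last place, below bde. In WT mitotic anthers zmm29 stood above zmm2 and zag1 above ZAG5, and in hda108 mitotic anthers zmm2 was again above zmm29. Without replicate values it cannot be said which neighbours in these orders differ beyond their spread.

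**Figure D1:**
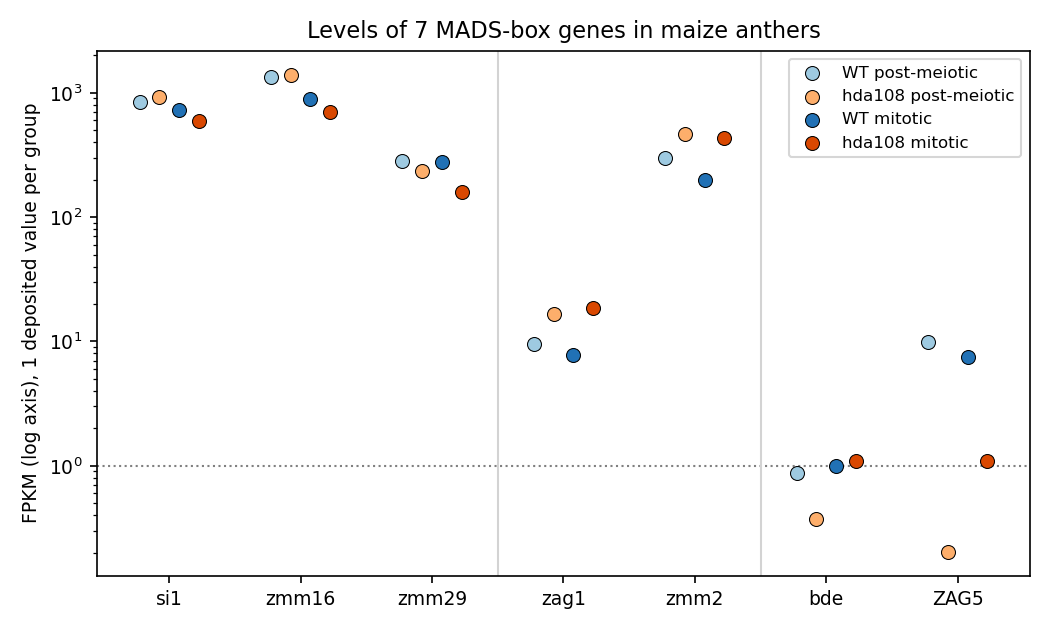
FPKM (log axis) of the 7 genes, 1 point per group, ordered as B-class, C-class and AGL6-like genes with grey lines between the classes. zmm16 lies between 702 and 1399.9 FPKM and bde between 0.375 and 1.08 FPKM, and ZAG5 shows the widest gap between WT and hda108.

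The first pair of comparisons asked how the hda108 mutation altered these genes at each stage. ZAG5 was the gene with the largest genotype difference. It was 49.1-fold lower in hda108 after meiosis, a log2 difference of -3.19, and 6.88-fold lower at the mitotic stage, a difference of -2.02 that barely passed the size rule. With rescaled groups the differences were -3.001 and -1.11, so the mitotic one no longer passed, while the all-gene medians were 0.50 and 1.05. In every alternative processing tried, ZAG5 stayed below WT at both stages. Levels near 0.2 FPKM rest on few fragments, and since depth is unknown the size of the post-meiotic ratio is uncertain.

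Among the 7 genes, ZAG5 alone passed the 4-fold rule as lower after meiosis and at the mitotic stage, and 0 genes passed it as higher. bde, at 1.08 FPKM or less in every group, could not have passed in either direction. For comparison, the shares of all 24360 genes called lower were 4.47% (post-meiotic) and 8.12% (mitotic), and the shares called higher 1.68% and 1.52%. With so few genes, 1 of 7 cannot be set apart from those shares.

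The C-class genes both stood above WT in the mutant. zmm2 was 1.53-fold higher after meiosis and 2.19-fold higher at the mitotic stage, log2 differences of 0.62 and 1.12. zag1 was 1.75-fold and 2.36-fold higher, log2 differences of 0.74 and 1.14. Neither passed the 4-fold rule with the values as deposited, but with a 2-fold rule both were higher at the mitotic stage, as were 10.4% of all genes. The zmm2 difference exceeded that of 85.2% of all genes after meiosis and of 92.3% at the mitotic stage, and the zag1 difference exceeded 88.3% and 92.5%. Both genes were above WT at both stages in every alternative processing tried. After rescaling, zmm2 had differences of 1.22 and 2.47 and zag1 of 1.32 and 2.40, against the all-gene medians of 0.50 and 1.05, so that both passed the 4-fold rule at the mitotic stage, as 13.7% of all genes did as higher.

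Cell-type markers differed between the same groups. All 8 of 8 genes of the pollen list were below WT in hda108 at both stages, abp3 the least, at -0.29 and -0.30 log2. Of all genes, 52.0% (post-meiotic) and 50.7% (mitotic) were below WT. Of genes averaging 100 FPKM or more over the 4 groups, as all 8 do, the shares were 79.1% and 84.5%. Choosing genes by that average can itself favour genes below WT, as described below. By the 4-fold rule 28.3% and 37.4% of those abundant genes were lower. The 8 pollen list genes summed in WT to 14454 FPKM (post-meiotic) and 21513 FPKM (mitotic), against 3157 and 3959 FPKM in hda108, with none listed at 0. By the 4-fold rule abp2, mgs1, pro3 (a profilin gene by name) and the expansin gene expb10 were lower at both stages, by 2.01 to 3.20 log2, and the expansin gene expb1 after meiosis alone, at -2.36. Of the 6 compared genes of the tapetum and anther wall list, 5 were below WT at each stage, among them tip2, which was not the intended gene. The other, the male-sterility gene ms8, was above WT, at 0.608 against 7.02 FPKM after meiosis (2.32 log2, past the 4-fold rule) and 0.0555 against 0.474 FPKM at the mitotic stage. Besides tip2, which passed as lower at both stages (-2.52 and -2.73), only ms23 of this list did, at the mitotic stage (-2.62). The 7 genes found of that list summed to 4715 and 5428 FPKM in the WT groups and to 887 and 859.6 FPKM in hda108, again with none at 0. Most of each sum came from tip2, which the name table also calls TIP1-2, an aquaporin and not the intended regulator. Of the 6 compared green-tissue genes, 6 after meiosis and 4 at the mitotic stage were above WT, and the 7 genes found summed to 309 and 125 FPKM in the WT groups and to 506 and 203 FPKM in the hda108 groups, with none at 0. The part of these shifts in the MADS-box differences was not tested.

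As deposited, the 3 listed B-class genes si1, zmm16 and zmm29 differed less than 2-fold between genotypes. The PI-like gene m18, not on the list, was 1.27-fold lower in hda108 after meiosis and 2.54-fold lower at the mitotic stage. si1 and zmm16 were 1.10-fold and 1.04-fold higher in hda108 after meiosis, and 1.22-fold and 1.26-fold lower at the mitotic stage. zmm29 was 1.20-fold and 1.73-fold lower. The mitotic differences of si1, zmm16 and zmm29, -0.29, -0.34 and -0.79 log2, turned to 1.05, 1.01 and 0.55 after rescaling, near or below the all-gene median of 1.05, and the post-meiotic difference of zmm29 turned from -0.26 to 0.35. With quantile normalization si1 was above WT by 1.41 (post-meiotic) and 1.63 log2 (mitotic), zmm16 by 1.35 and 1.59 and zmm29 by 0.42 and 0.67, against all-gene medians of 0.10 and 0.15. Whether these genes were lower in hda108 thus depends on how the groups are scaled. For bde the log2 differences were -0.45 (post-meiotic) and 0.07 (mitotic).

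**Figure D2:**
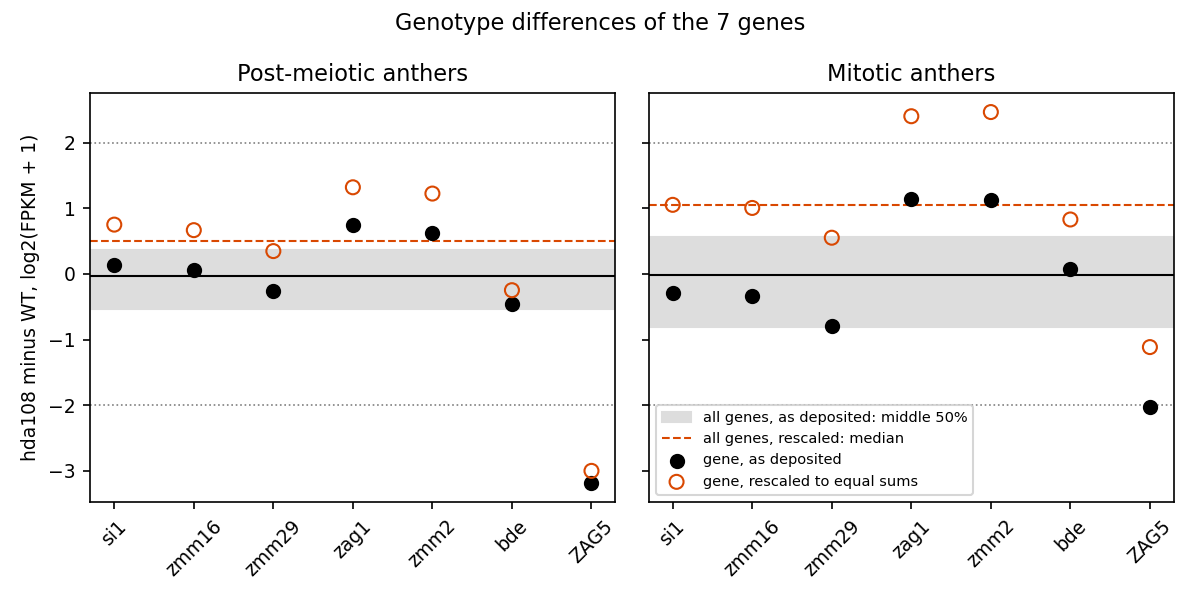
Difference hda108 minus WT in log2(FPKM + 1) of the 7 genes in post-meiotic and mitotic anthers, as deposited (filled) and after rescaling each group to the same sum (open), with the middle 50% and median of all genes as deposited (grey band, black line), the rescaled median (dashed) and the size rule of 2 (dotted). zag1 and zmm2 lie above both medians in each panel and ZAG5 below both.

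The comparison with all genes mixes abundant and rare RNAs. Taken as abundant were the 1494 genes that averaged 100 FPKM or more over the 4 groups, a limit chosen after the values were seen. A gene can enter through its WT values alone, and the sums of WT were higher, so the choice itself can favour genes below WT. How much of the shares and places given here comes from that choice was not tested. Of these 1494 genes, 79.1% were below WT after meiosis and 84.5% at the mitotic stage. Their median differences were -0.74 and -1.48 log2, and 28.3% and 37.4% were lower by the 4-fold rule. si1, zmm16, zmm29 and zmm2 belong to these genes, and 0 of the 4 were lower by that rule. The zmm2 difference exceeded that of 92.2% of the abundant genes after meiosis and of 96.0% at the mitotic stage, where 59 abundant genes had a larger one. The corresponding shares were 83.5% and 78.7% for si1, 81.1% and 77.4% for zmm16, and 69.3% and 66.5% for zmm29.

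The 7 genes together summed to 2783 FPKM (post-meiotic) and 2106 FPKM (mitotic) in WT, and to 3037 and 1912 FPKM in hda108, where the sum of all genes was lower at both stages. In WT they held 0.260% of it (post-meiotic) and 0.164% (mitotic), and in hda108 0.433% and 0.378%. The other named MADS-box genes held 0.275% and 0.183% in WT and 0.424% and 0.353% in hda108. A factor applied to a whole group leaves these shares as they are.

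**Figure D3:**
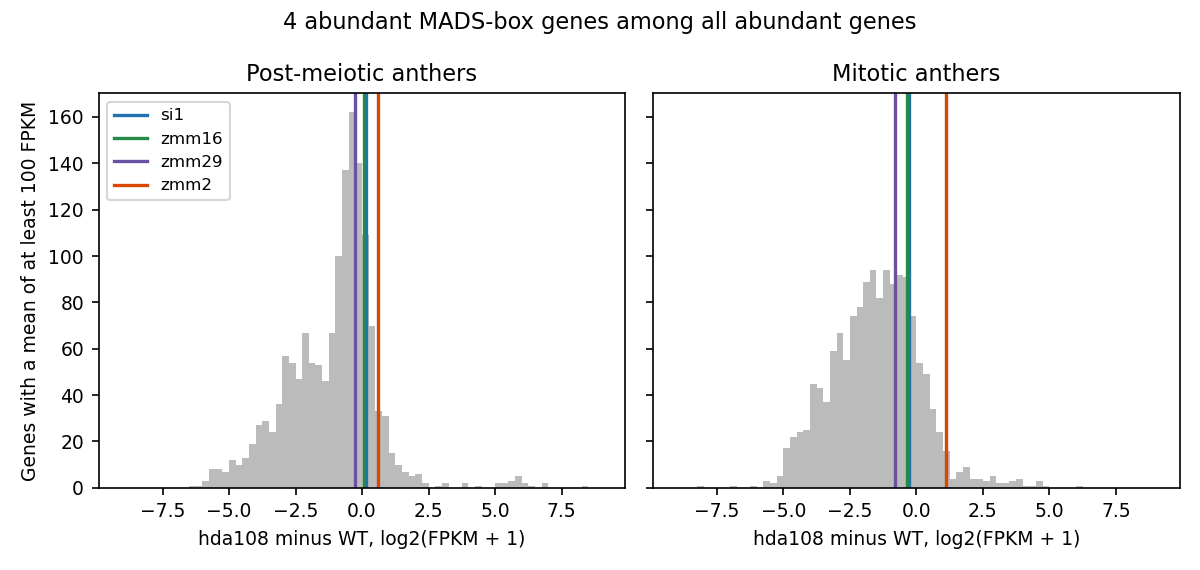
Histograms (bins of 0.25) of the difference hda108 minus WT in log2(FPKM + 1) for the 1494 abundant genes (mean of 100 FPKM or more), with coloured lines for si1, zmm16, zmm29 and zmm2. All 4 lines lie right of the histogram medians of -0.74 and -1.48, and zmm2 is the farthest right at both stages.

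The second pair of comparisons asked what differed between the stages within a genotype. None of the 7 genes passed the 4-fold rule in WT, where 1.35% of all genes were higher and 1.46% lower at the mitotic stage, or in hda108, where 1.02% were higher and 2.94% lower. At its low levels bde could not have passed. In WT, zmm16 and zmm2 had 66.1% and 66.1% of their post-meiotic level at the mitotic stage, si1 86.9%, zag1 82.1%, zmm29 98.4% and bde 112%, and ZAG5 was 1.33-fold lower. As deposited, 6 of the 7 were below their post-meiotic value, as were 71.0% of all genes, so this count does not set the 7 apart. Their median was -0.26 log2, against -0.31 for all genes. With median-ratio scaling only zmm16 and zmm2 were below their post-meiotic value, and these 2 genes were below it in every alternative tried.

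In hda108, zmm16 had 50.2% of its post-meiotic level at the mitotic stage, si1 64.3% and zmm29 68.1%. zmm2 had 94.3% and zag1 111%. ZAG5 was 5.36-fold higher at the mitotic stage, on a level of 0.203 FPKM after meiosis. For bde, which was compared only because of its hda108 mitotic value, that value being higher is no finding. The median of the 7 was -0.09 log2, against -0.27 for all genes, and it turned to 0.39 after rescaling. si1 and zmm16 stayed below their post-meiotic value in every alternative tried, and zmm29 reached 0.01 log2 with quantile normalization. Of the green-tissue list, cab48 and GRMZM5G899080, found under the name pep1, were lower at the mitotic stage by the 4-fold rule in both genotypes, and rbcs1 in hda108 (-2.29). The name pep1 also led to GRMZM2G083841, which stayed between 0.0491 and 0.289 FPKM, below the filter. Which of these IDs is the intended green-tissue gene was not settled here. The tapetum list genes ms23 (-2.51) and ms8 (-2.44) were lower in hda108. The part of these differences in the MADS-box values was not tested.

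The fifth comparison set the genotype differences of both stages against each other, mitotic minus post-meiotic. The value was -0.43 log2 for si1, -0.40 for zmm16 and -0.53 for zmm29, and it was positive for the C-class and AGL6-like genes, with 0.40 for zag1, 0.51 for zmm2, 0.52 for bde and 1.17 for ZAG5. The median of all genes was 0.02. After rescaling all 7 values were positive, yet the B-class genes, at 0.30, 0.34 and 0.20, remained below the all-gene median of 0.60. With quantile normalization all 7 were positive and above the all-gene median. By the 4-fold rule 0 of the 7 genes differed here, against 0.423% of all genes higher and 2.03% lower.

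Ratios of genes within a group are free of the scaling between groups, and FPKM takes transcript length into account. The level of zmm2 over that of zag1 was 31.6 (post-meiotic) and 25.5 (mitotic) in WT, and 27.8 and 23.6 in hda108, so the C-class genes kept a similar proportion in all 4 groups. The level of si1 over that of zmm2 was 2.77 in WT and 1.99 in hda108 after meiosis, and 3.64 and 1.36 at the mitotic stage. The sum of the 3 B-class genes over that of the 2 C-class genes was 7.91 and 5.33 after meiosis and 9.12 and 3.20 at the mitotic stage, lower in hda108 at both. The PI-like genes zmm16, zmm29 and m18 together stood at 3.33 (post-meiotic) and 2.90 (mitotic) times the level of si1 in WT, and at 2.76 and 2.08 times in hda108. The level of ZAG5 over that of bde was 11.3 and 7.58 in WT and 0.541 and 1.004 in hda108 (post-meiotic and mitotic).

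ZAG5 lies on the same chromosome as HDA108, 90.1 Mb from it. Its 6 nearest table entries on each side, added after its values were seen, gave 6 compared genes. Of these, 0 were lower or higher in hda108 by the 4-fold rule at either stage. Of all genes, 4.47% (post-meiotic) and 8.12% (mitotic) were lower and 1.68% and 1.52% higher, so 0 of 6 cannot be set apart from those shares. The differences of the 6 neighbours lay between -0.81 and 0.48 log2 in post-meiotic anthers and between -1.42 and 0.77 in mitotic ones. The nearest compared gene, GRMZM2G028438, stood at 16.6 FPKM (post-meiotic) and 10.7 FPKM (mitotic) in WT, and at 9.04 and 4.03 FPKM in hda108.

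**Figure D4:**
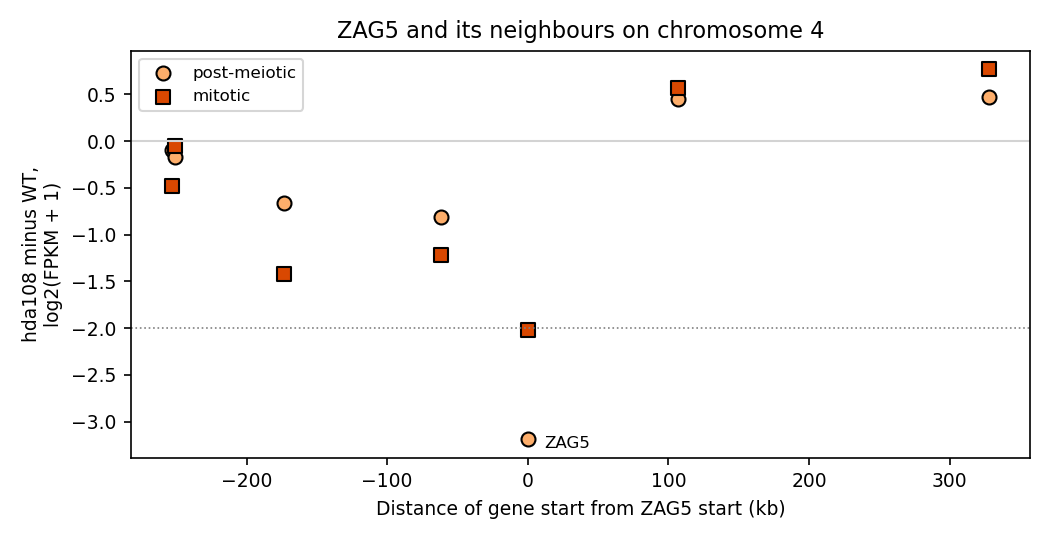
Difference hda108 minus WT in log2(FPKM + 1), at both stages, of ZAG5 and the 6 compared neighbours, by distance of the gene start from the ZAG5 start in kb; the dotted line is the size rule. ZAG5, at -3.19 and -2.02, is the only one at or below -2.

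ZAG5 was the only one of the 7 genes whose log2(FPKM + 1) ranged by at least 2 over the groups, at 3.19. Among 135 genes with a symbol of their own in the name table and at least 5 FPKM in a group, bZIP45 (GRMZM2G093020, chromosome 1, 143352527 to 143354301) had the most similar centred profile, at a Euclidean distance of 0.67 over the 4 groups. bZIP45 stood at 64.2 FPKM (post-meiotic) and 89.6 FPKM (mitotic) in WT, and at 10.5 and 13.96 FPKM in hda108. A1 (GRMZM2G026930, chromosome 3), the dihydroflavonol reductase gene of anthocyanin synthesis, came next at 0.78, with 54.4 and 48.8 FPKM in the WT groups and 9.98 and 8.34 FPKM in the hda108 groups. Named or not, 21 of 17752 genes were nearer to ZAG5 than bZIP45.

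The rest of the family was found by symbol or synonym as 27 further IDs, 21 of which passed the filter on low values. By the 4-fold rule 0 of the 21 differed between genotypes after meiosis, and 1 was higher and 1 lower at the mitotic stage. Of all genes, 1.68% were higher and 4.47% lower in the former comparison and 1.52% and 8.12% in the latter, so these counts do not set the family apart. Their median differences were -0.13 and -0.04 log2, against -0.03 and -0.02 for all genes. The rule understates the change of low genes. As ratios of FPKM after meiosis, GRMZM2G316366 was 9.65-fold, GRMZM2G492156 10.2-fold and MADS70 (GRMZM5G891280) 6.80-fold lower in hda108. Their hda108 levels there were 0.499, 0.367 and 0.462 FPKM. With a pseudocount of 0.1, 3 of the 21 passed as lower after meiosis and 0 as higher. MADS70 was also 5.30-fold lower at the mitotic stage. The gene called higher at the mitotic stage was GRMZM2G099522, named M14, MADS7 and MADS8 in the table and of the SEP-like class by the name M14. In WT it stood at 4.71 FPKM (post-meiotic) and 0.646 FPKM (mitotic), and in hda108 at 16.4 and 6.06 FPKM, 9.38-fold higher at the mitotic stage.

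The gene called lower at the mitotic stage was GRMZM2G316366, which the table joins with GRMZM2G492156 in the chromosome 5 entry named zmm2. In WT, GRMZM2G316366 stood at 4.82 FPKM (post-meiotic) and 35.3 FPKM (mitotic), and in hda108 at 0.499 and 2.42 FPKM. GRMZM2G492156 stood at 3.74 and 21.7 FPKM in WT and at 0.367 and 5.57 FPKM in hda108. Both IDs were higher at the mitotic stage in WT by the 4-fold rule, and GRMZM2G492156 also in hda108. As deposited, they were lower in the mutant and higher at the mitotic stage, opposite in both to the chromosome 8 zmm2, and a value read by the symbol zmm2 alone can belong to either.

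The SEP-like genes ranged widely. Of the 7 IDs placed in that class, 2 reached levels of the abundant B-class and C-class genes in every group, and the other 5 stayed at or below 34.6 FPKM. The table entry holding both names zmm6 and zmm7 (GRMZM2G159397) stood at 664 FPKM (post-meiotic) and 551 FPKM (mitotic) in WT, and at 853 and 548 FPKM in hda108. zmm27 (GRMZM2G129034) stood at 387 and 315 FPKM in WT and at 439 and 334 FPKM in hda108. zmm24 (GRMZM2G087095) was one of the low 5, with 14.5 and 13.6 FPKM in the WT groups and 4.05 and 5.84 FPKM in the hda108 groups. The AP1/FUL-like gene zap1 (GRMZM2G148693) stood at 3.27 and 1.98 FPKM in WT and at 7.35 and 7.38 FPKM in hda108, above WT at both stages. In the same class, MADS67 (GRMZM2G147716) stood at 110 and 67.3 FPKM in WT and at 104 and 82.6 FPKM in hda108. MADS15 (GRMZM2G553379) stood at 23.6 and 10.8 FPKM in WT and at 21.4 and 12.9 FPKM in hda108. Both were below WT after meiosis and above it at the mitotic stage. The entries GRMZM2G159397, zmm27, zmm24 and zap1 were picked as examples after their values were seen.

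**Figure D5:**
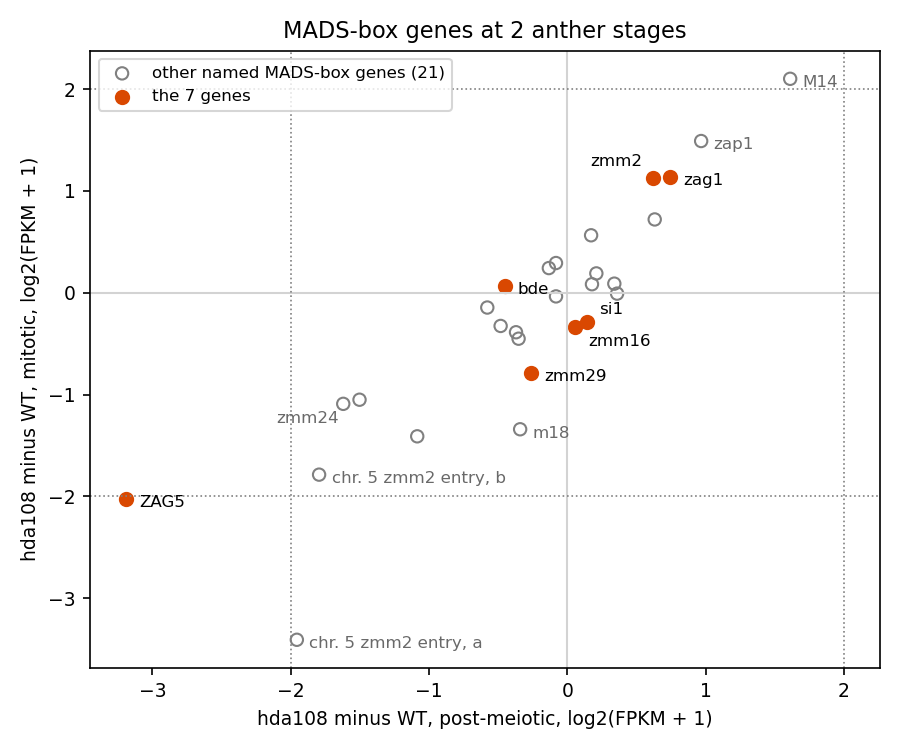
Difference hda108 minus WT in log2(FPKM + 1) after meiosis (x axis) and at the mitotic stage (y axis) for the 7 genes (filled) and the 21 other named MADS-box genes compared (open); dotted lines mark the size rule of 2. Chr. 5 zmm2 entry a is GRMZM2G316366 and b is GRMZM2G492156; zmm2 and zag1 lie in the upper right, ZAG5 and both chromosome 5 entries in the lower left.

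Other regulators of the floral and inflorescence meristem were close to absent. Of the 14 genes found on that list, 5 reached 1 FPKM in a group, and no value exceeded 2.59 FPKM. The LEAFY-like gene zfl1 (GRMZM2G098813), of a family that acts upstream of B-class and C-class genes, stood at 0.893 and 0.471 FPKM in WT and at 0.122 and 0.158 FPKM in hda108. The meristem gene kn1 (GRMZM2G017087) stayed between 0 and 0.154 FPKM. Of the 5 compared genes, 0 passed the 4-fold rule in any comparison. Between groups none could have, because values this low cannot differ by 2 in log2(FPKM + 1), so the count carries no information. Their median genotype differences were 0.13 log2 (post-meiotic) and 0.10 (mitotic), against -0.03 and -0.02 for all genes.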

How the data were processed

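The deposited FPKM table covers 4 groups of 2 libraries and, per the file headers, has a single column for each group. Homozygous columns were read as hda108, the labels' only genotype other than WT. The submitters' processing notes name Cuffdiff 2.2.1 and Cufflinks, TopHat2 2.0.13, Trimmomatic 0.33, CASAVA 1.8, SAMtools and B73 RefGen_v3, without roles. The sources used here do not say how libraries were combined or groups scaled. Depth is unknown, so no interval or floor is given. The planned limma test needs 1 value per library and was not run.

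Differences are of log2(FPKM + 1), which understates the change of low genes, and folds are ratios of FPKM. Genes needed 1 FPKM in at least 1 group. Alternatives were rescaling to a sum of 1000000, quantile normalization, median-ratio scaling, a pseudocount of 0.1, no filter, a filter of 5 FPKM and a size rule of 1. The text names all 7 genes, HDA108, list genes past the size rule where 5 or fewer passed in a comparison (otherwise the 3 with the largest difference), and for a gene ranging by at least 2 log2 the 2 most similar profiles. List genes given only to describe a list were chosen after their values were seen. Members and lists were chosen with earlier results of these data known. Names came from RefSeq by gene ID, and all 7 IDs matched. Of the other family members, the match ns1 is a homeobox gene and was below the filter. Classes follow the gene names, and the short names m14, m15, m18 and m28 were added after the table was seen. Start coordinates are as deposited. Python 3.11.15, numpy 2.4.6, pandas 2.3.3 and matplotlib 3.10.9 were used and tested on simulated data.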

Additional observations from a re-analysis of the deposited data

How the results depend on the processing

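No paired analysis was possible because the deposited values hold 1 value per group and not per library, and for the same reason no replicate could be left out. Of 240 recomputed differences of single genes, 207 kept their direction and their side of the size rule, 25 that were past it in neither case changed sign, and 8 crossed it. Of the 207, 35 came from dropping the filter and 30 from the filter of 5 FPKM, which cannot alter a gene's difference. Another 32 came from the size rule of 1, which leaves every value and direction as it was. The 207 therefore overstate how stable the values are. The crossings were ZAG5 at the mitotic stage after rescaling (-1.11), zag1 there after rescaling (2.40), zmm2 there after rescaling (2.47) and with quantile normalization (2.65), ZAG5 in the stage-by-genotype difference with a pseudocount of 0.1 (2.38), and 3 with the size rule of 1. Of the 7 genes, the number past the size rule at the mitotic stage went from 1 to 2 after rescaling and with quantile normalization and to 3 with the size rule of 1. In the stage-by-genotype difference it went from 0 to 1 with the pseudocount of 0.1 and with the size rule of 1. For the other MADS-box genes the size rule of 1 gave 6 instead of 0 after meiosis, 8 instead of 2 at the mitotic stage, 5 instead of 2 between stages in WT, 6 instead of 1 in hda108 and 2 instead of 0 in the stage-by-genotype difference. The pseudocount of 0.1 gave them 3 after meiosis, 3 at the mitotic stage, 3 between stages in WT and 2 in hda108, and rescaling gave 1 after meiosis, 3 at the mitotic stage and 1 between stages in WT. The median of the 7 genes, in the order post-meiotic genotype, mitotic genotype, WT stage, hda108 stage and stage-by-genotype difference, was 0.06, -0.29, -0.26, -0.09 and 0.40 log2. After rescaling it was 0.67, 1.01, -0.48, 0.39 and 1.08, and with quantile normalization 0.92, 1.31, -0.24, 0.33 and 0.39. The filter of 5 FPKM, which drops bde, gave 0.10, -0.31, -0.31, -0.32 and -0.00023. Median-ratio scaling gave -0.33 for the mitotic genotype comparison, 0.15 and 0.33 for the stage comparisons and 0.38 for the stage-by-genotype difference, and the pseudocount of 0.1 gave -0.28 for the WT stage comparison and 0.43 for the stage-by-genotype difference. Without the filter on low values none of these medians or counts moved. They could not, because all 7 genes passed the filter and genes below 1 FPKM in every group cannot reach the size rule. Dropping bde is the construction of the 5 FPKM filter; the cause of the other shifts was not tested. Levels under about 1 FPKM, as for bde and for ZAG5 in hda108, are limited most by the unknown depth.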
